A study of Mus musculus with 9 samples.

Results

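Integrins are receptors in the cell membrane, each built from an alpha and a beta chain, that bind proteins of the extracellular matrix outside the cell and link them to the actin cytoskeleton or to keratin filaments inside it. Nephronectin (Npnt) is a matrix protein and the main known kidney ligand of the integrin formed by Itga8 and Itgb1. In the mouse kidney, nephronectin is made by the epithelium of the ureteric bud and Itga8 by the mesenchyme around it, and the loss of either gene impairs the expression of Gdnf and the outgrowth of the bud. Described here are 10 of the 12393 genes with a symbol of their own on the array, namely 9 integrin chains (Itga8, Itgb1, Itga2, Itga3, Itga5, Itga6, Itgav, Itgb4 and Itgb6) and Npnt. They were chosen by symbol: every probe set that the platform annotation pairs with exactly 1 of these symbols was taken, 26 of 22626 probe sets that were not controls.

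Transcript levels had been measured on Affymetrix MOE430A arrays in 3 structures of the embryonic kidney, with 3 arrays each. The s-shaped body, in which the parts of the later nephron become visible, follows the renal vesicle, the first epithelial stage of the nephron. The collecting duct derives from the ureteric bud and was the submitters' reference. All samples came from wild-type mice of strain 129 at stage E14.5 (Theiler stage 22), of unknown sex, and were dissected by morphology. Each s-shaped body sample and each renal vesicle sample was a pool of 20 structures, and the pool size of each collecting duct sample was 1. The samples had no treatment or engineered allele. Total RNA went through 2 rounds of amplification in every sample.

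Levels are given as the log2 of the quantile-normalized intensity after a pseudocount of 26, so 1 unit is a doubling of intensity for bright genes and less than the true change for dim ones. Levels of different probe sets cannot be compared, because probes differ in how well they hybridize. A gene was tested when 1 of its probe sets exceeded the median of its own array on at least 3 arrays. Of the 10 members, 5 passed (Npnt, Itgb1, Itga3, Itga6 and Itgav), each above the array median on 9 of 9 arrays. Itga8, Itga2, Itga5, Itgb4 and Itgb6 did not pass, and were tested only in a fit of all 22626 probe sets without the filter. Where all 3 arrays of a group lay under their array medians, the pseudocount sets the size of a fold, and the log2 difference is given in its place. A change is a limma adjusted p under 0.05 (Benjamini-Hochberg) over all 7998 genes tested.

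The s-shaped body samples had more transcript of all 5 tested members than the renal vesicle samples, between 1.50-fold and 2.84-fold. Across all genes tested, 18.5% were higher and 36.3% changed in either direction in that comparison. Against the collecting duct, 4 of the 5 were higher in the s-shaped body, where 16.9% of all genes were higher and 32.8% changed either way, and Npnt did not pass the test. In the renal vesicle against the collecting duct, Itga6 was higher and Npnt and Itga3 were lower, where 15.6% of all genes were higher, 15.9% lower and 31.5% either. The arrays of both structures did not overlap for 5 of the 5 members in the s-shaped body against the renal vesicle, for 4 when the s-shaped body was set against the collecting duct and for 3 in the renal vesicle against the collecting duct, where 52.9%, 43.9% and 43.3% of all genes did not overlap. The median log2 difference over all genes was −0.03 for the s-shaped body against the renal vesicle, −0.03 for the s-shaped body against the collecting duct and 0.01 for the renal vesicle against the collecting duct.

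**Figure D1:**
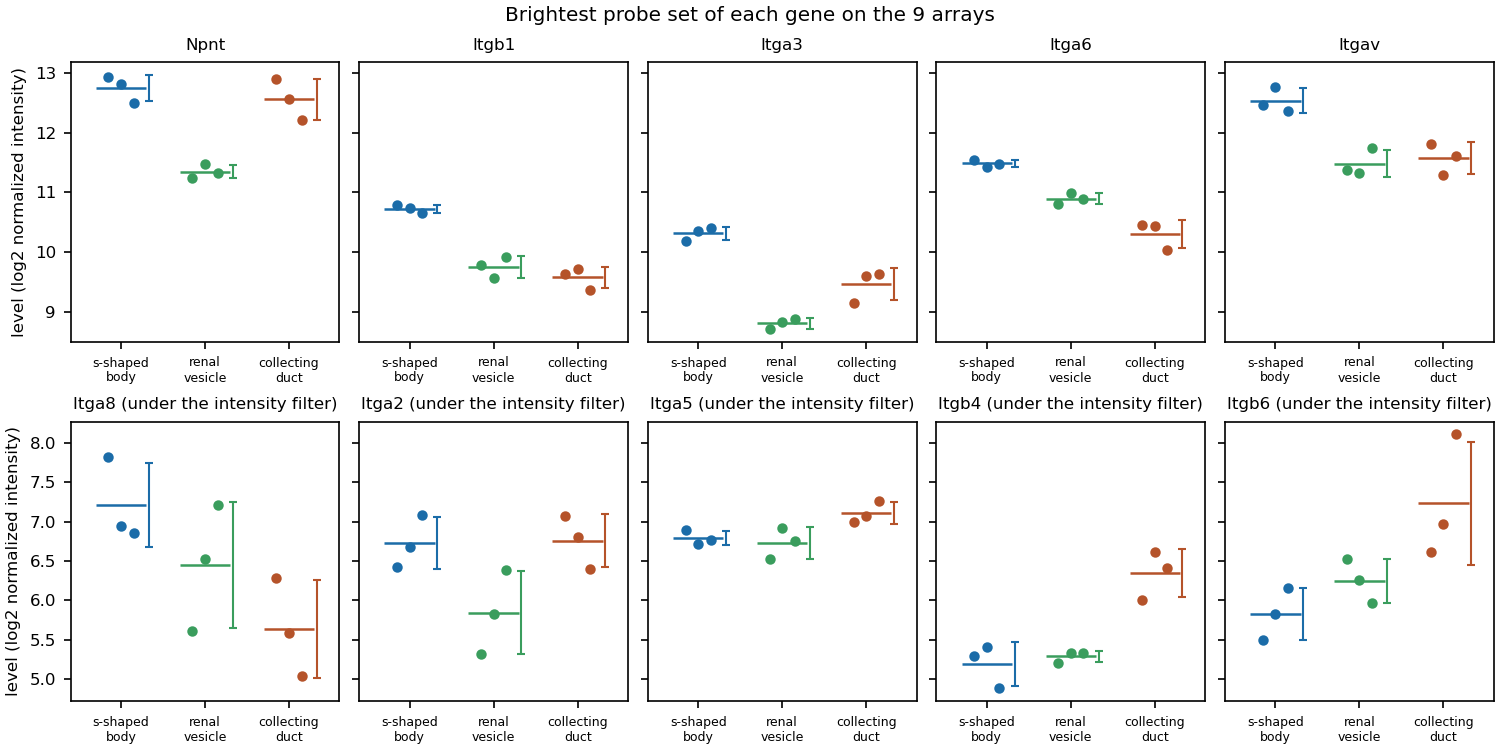
Log2 normalized intensity of the 10 members, 1 panel per gene and 1 point per array, for s-shaped body, renal vesicle and collecting duct (3 arrays each), with the brightest probe set of each gene, a line at each mean and a bar of 1 SD to either side. Npnt averaged 12.75 in the s-shaped body, 11.35 in the renal vesicle and 12.56 in the collecting duct, whereas Itgb1, Itga3, Itga6 and Itgav were highest on the 3 s-shaped body arrays.

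The s-shaped body samples also held transcripts of cells other than nephron epithelium, beside which every s-shaped body value here has to be read. The summed normalized intensity of 11 stroma markers was between 25800 and 30700 in s-shaped body samples, between 2000 and 3520 in renal vesicle samples and between 1040 and 1530 in collecting duct samples. That of 10 endothelium markers was between 24100 and 28000, between 4860 and 9290, and between 463 and 700 in the same order of structures. Cldn5, which averaged 14.03, 12.39 and 5.88 in that order, made up most of the s-shaped body and renal vesicle sums. Of 8 endothelium markers tested, 8 were higher in the s-shaped body than in the renal vesicle, where 18.5% of all genes were higher. In the renal vesicle against the collecting duct, 3 of the 8 were higher and 1 was lower, where 15.6% of all genes were higher and 15.9% lower. Of the stroma markers, 9 exceeded the array median on all 3 s-shaped body arrays, 5 on all renal vesicle arrays and 3 on all collecting duct arrays, and of the endothelium markers 8, 1 and 0. A gene above the median on the 3 s-shaped body arrays alone passed the filter. The count of 8 of 8 endothelium markers higher was therefore largely set by the filter. The summed level of 6 erythroid markers was between 20000 and 21900 in s-shaped body samples, between 542 and 2620 in renal vesicle samples and between 170 and 2530 in collecting duct samples. Most of the s-shaped body sum was Hbb-y. That of 8 macrophage markers was between 3230 and 3840, between 474 and 705, and between 679 and 827 in the same order of structures. Csf1r made up most of the s-shaped body value. Adgre1, the only other macrophage marker tested, did not pass against the collecting duct (0.19, limma adjusted p 0.485), and both were higher than in the renal vesicle. The sum of 5 megakaryocyte and platelet markers was between 1090 and 1280, between 480 and 610, and between 655 and 707. Of 3 tested, 1 was higher in the s-shaped body than in either other structure, where 18.5% (renal vesicle) and 16.9% (collecting duct) of all genes were. Stromal, endothelial and blood cells carry Itgb1, Itgav and other integrins, and the part of these cells in the integrin values was not tested. In such bulk samples, fewer cells of a type and less RNA per cell cannot be told apart.

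The dissected structures were checked against markers of their own. The 7 podocyte markers on the array summed to between 52500 and 53200 in s-shaped body samples, between 3270 and 11100 in renal vesicle samples and between 540 and 618 in collecting duct samples, with renal vesicle replicate 3 at the upper end of its group. The 11 markers of the collecting duct trunk summed to between 1150 and 1390 in s-shaped body samples, between 2290 and 4220 in renal vesicle samples and between 41100 and 46700 in collecting duct samples. The 4 markers of the ureteric tip, where the bud branches, summed to between 271 and 334 in s-shaped body samples, between 433 and 859 in renal vesicle samples and between 282 and 369 in collecting duct samples. Of these, 0 exceeded the array median on all 3 s-shaped body arrays, 1 (Wnt11) on all renal vesicle arrays and 0 on all collecting duct arrays. Of 9 markers of the cap mesenchyme, from which the renal vesicle forms, 2 did so on all renal vesicle arrays. The same count was 2 for the s-shaped body and 1 for the collecting duct. The 9 summed to between 797 and 1220 in renal vesicle samples. Their sums lay between 634 and 771 in s-shaped body samples and between 563 and 726 in collecting duct samples. Of 4 tested, 2 were higher and 1 (Osr1) lower in renal vesicle samples when set against collecting duct samples, where 15.6% and 15.9% of all genes were. Osr1 averaged 5.08 and 7.73 in these samples. The collecting duct samples also held urothelium markers, which summed to between 12700 and 16200, against between 399 and 572 in s-shaped body samples and between 486 and 685 in renal vesicle samples. Foxa1 made up most of the collecting duct value. Of 4 urothelium markers tested, 3 were lower in both other structures than in the collecting duct, where 15.9% of all genes were lower in each comparison. Upk2 did not pass in any comparison. Of the urothelium markers, 4 exceeded the array median on all collecting duct arrays, and 1 did so on all arrays of each other structure. The count of 3 lower was therefore largely set by the filter. Correlations between arrays were between 0.939 and 0.982 within a structure and between 0.77 and 0.868 between structures.

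**Figure D2:**
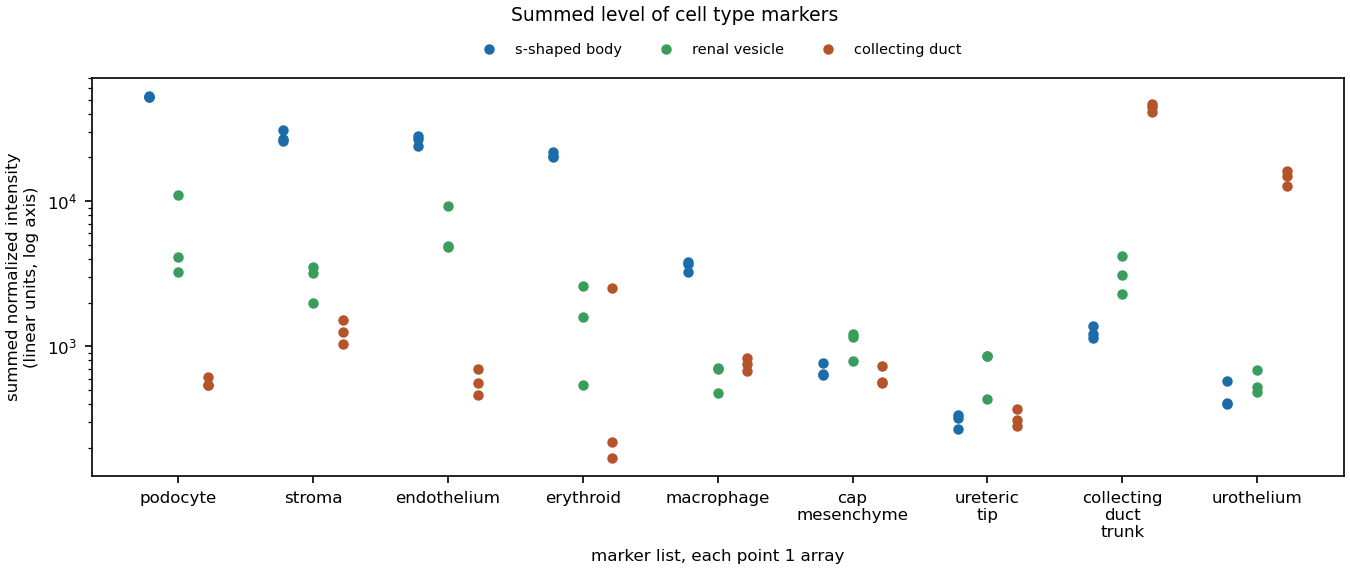
Summed normalized intensity of each marker list (log axis, linear units), 1 point per array for s-shaped body, renal vesicle and collecting duct. The s-shaped body arrays are highest for podocyte, stroma and endothelium markers (stroma between 25800 and 30700), and the collecting duct arrays for trunk markers (between 41100 and 46700).

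Npnt, the ligand, was bright in s-shaped body and collecting duct samples and lower in the renal vesicle. Its brightest probe set, 1452106_at, read 12.93, 12.81 and 12.50 in s-shaped body samples, 11.25, 11.47 and 11.33 in renal vesicle samples and 12.90, 12.56 and 12.22 in collecting duct samples. The renal vesicle arrays lay below all others, and the s-shaped body arrays overlapped with collecting duct arrays. The s-shaped body exceeded the renal vesicle by 1.40 (SE 0.18, 2.63-fold, limma adjusted p 8.3e-05). The renal vesicle fell by 1.21 relative to the collecting duct (SE 0.18, limma adjusted p 0.000281), a 2.31-fold lower level. For the s-shaped body against the collecting duct the difference was 0.19 with a 95% interval from −0.20 to 0.58 (limma adjusted p 0.47). With the mean of the 3 Npnt probe sets that passed the filter in place of the brightest one, the renal vesicle differed from the collecting duct by −0.75, with limma adjusted p 0.00195.

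The 5 probe sets of Npnt did not all show this pattern. Probe set 1452107_s_at read 11.51, 11.22 and 11.37 in s-shaped body samples, 9.82, 10.26 and 10.23 in renal vesicle samples and 10.87, 10.50 and 11.06 in collecting duct samples. In the limma fit of the 12590 probe sets that passed the filter, it was higher in the s-shaped body than in the renal vesicle by 1.26 (adjusted p 0.000391). It was lower in renal vesicle samples than in collecting duct samples, with a difference of −0.71 (adjusted p 0.0167). Unlike the brightest probe set, it also separated the s-shaped body from the collecting duct, by 0.56, close to the threshold (limma adjusted p 0.0482, and 0.0622 without the filter). The dimmer 1426560_a_at averaged 8.35 ± 0.39, 8.05 ± 0.20 and 8.40 ± 0.27 in s-shaped body, renal vesicle and collecting duct samples (SD, n = 3 each), and its differences lay between −0.35 and 0.29 with limma adjusted p of 0.283 or more. Probe sets 1426561_a_at and 1421429_a_at stayed under the filter, and neither passed the test in any comparison.

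Itgb1 encodes the beta chain that Itga2, Itga3, Itga5, Itga6, Itga8 and Itgav can all pair with. Its probe set 1426918_at read 10.79, 10.74 and 10.66 in s-shaped body samples, 9.78, 9.56 and 9.92 in renal vesicle samples and 9.64, 9.72 and 9.37 in collecting duct samples. All 3 s-shaped body arrays lay above the other 6, and the renal vesicle and collecting duct arrays overlapped. The s-shaped body exceeded the renal vesicle by 0.98 (SE 0.17, 1.97-fold, limma adjusted p 0.000717). It exceeded the collecting duct by 1.15 (SE 0.17, 2.23-fold, limma adjusted p 0.000167). The renal vesicle differed from the collecting duct by 0.18, with a 95% interval from −0.19 to 0.54 (limma adjusted p 0.455).

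A further Itgb1 probe set, 1452545_a_at, was more scattered. It read 10.39, 10.20 and 9.74 in s-shaped body samples, 9.26, 9.21 and 9.31 in renal vesicle samples and 9.76, 9.36 and 8.67 in collecting duct samples, so that the s-shaped body arrays overlapped with collecting duct arrays. It was higher in the s-shaped body than in the renal vesicle by 0.85 (limma adjusted p 0.0255) and than in the collecting duct by 0.85 (limma adjusted p 0.0296). Of the 4 Itgb1 probe sets under the filter, 1427771_x_at was higher in the s-shaped body than in the renal vesicle by 1.26 (limma adjusted p 0.00604 over all probe sets) and than in the collecting duct by 0.94 (limma adjusted p 0.0282). The other 3 did not pass in any comparison.

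Itga3 encodes the alpha chain that, with Itgb1, binds laminins beneath epithelia and is needed in mouse podocytes for a normal glomerular basement membrane. Probe set 1455158_at read 10.19, 10.35 and 10.40 in s-shaped body samples, 8.71, 8.83 and 8.88 in renal vesicle samples and 9.15, 9.60 and 9.63 in collecting duct samples. The 3 structures did not overlap, with the s-shaped body highest and the renal vesicle lowest. The s-shaped body exceeded the renal vesicle by 1.51 (SE 0.17, 2.84-fold, limma adjusted p 3.8e-05) and the collecting duct by 0.86 (SE 0.17, 1.81-fold, limma adjusted p 0.00215). The renal vesicle fell by 0.65 relative to the collecting duct (SE 0.17, limma adjusted p 0.0136). That last call was lost without renal vesicle replicate 1 (limma adjusted p 0.0541) and without collecting duct replicate 2 (limma adjusted p 0.0598). It was also lost without renal vesicle replicate 3 and collecting duct replicate 2 together (limma adjusted p 0.0839). Podocyte markers were higher in the same s-shaped body samples, and their part in the Itga3 values was not tested.

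Itga6 encodes an alpha chain of laminin receptors, which pairs with Itgb1 or with Itgb4. Probe set 1422445_at read 11.55, 11.43 and 11.48 in s-shaped body samples, 10.81, 10.99 and 10.89 in renal vesicle samples and 10.45, 10.44 and 10.04 in collecting duct samples. The order was s-shaped body, renal vesicle, collecting duct with no overlap. The s-shaped body exceeded the renal vesicle by 0.59 (SE 0.16, 1.50-fold, limma adjusted p 0.0121) and the collecting duct by 1.17 (SE 0.16, 2.26-fold, limma adjusted p 9.7e-05). The renal vesicle exceeded the collecting duct by 0.59 (SE 0.16, 1.50-fold, limma adjusted p 0.0144). With arrays centred on their medians in place of quantile normalization, the s-shaped body exceeded the renal vesicle by 0.42 and the call was lost (limma adjusted p 0.108). Without renal vesicle replicate 2, the call between renal vesicle and collecting duct was lost (limma adjusted p 0.0643).

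Itgav encodes the alpha chain of receptors that recognize the RGD motif (arginine, glycine, aspartate) of matrix proteins, and pairs with Itgb1, Itgb5, Itgb6 and others. Its bright probe set 1452784_at read 12.46, 12.77 and 12.37 in s-shaped body samples, 11.37, 11.33 and 11.75 in renal vesicle samples and 11.82, 11.29 and 11.61 in collecting duct samples. The s-shaped body arrays lay above the other 6, which overlapped among themselves. The s-shaped body exceeded the renal vesicle by 1.05 (SE 0.18, 2.07-fold, limma adjusted p 0.00073) and the collecting duct by 0.96 (SE 0.18, 1.95-fold, limma adjusted p 0.00123). The renal vesicle differed from the collecting duct by −0.09, with a 95% interval from −0.48 to 0.30 (limma adjusted p 0.744).

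Both remaining Itgav probe sets lay under the filter, and neither matched the bright one in every comparison. Probe set 1432296_a_at read 5.29, 6.19 and 5.26 in s-shaped body samples and 6.92, 7.0 and 6.5 in renal vesicle samples, with no overlap. It fell by 1.23 in the s-shaped body relative to the renal vesicle (limma adjusted p 0.0157 over all probe sets), the opposite direction. Probe set 1421198_at read 6.92, 6.17 and 6.47 in s-shaped body samples, 6.0, 6.52 and 6.25 in renal vesicle samples and 5.38, 5.06 and 5.05 in collecting duct samples. It exceeded the collecting duct by 1.36 in the s-shaped body (limma adjusted p 0.00221) and by 1.10 in the renal vesicle (limma adjusted p 0.00967). The first of these calls had the direction of the bright probe set, which did not pass in the second comparison. For 1421198_at the s-shaped body differed from the renal vesicle by 0.26 (limma adjusted p 0.521). Which transcripts these probe sets detect was not analysed here.

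**Figure D3:**
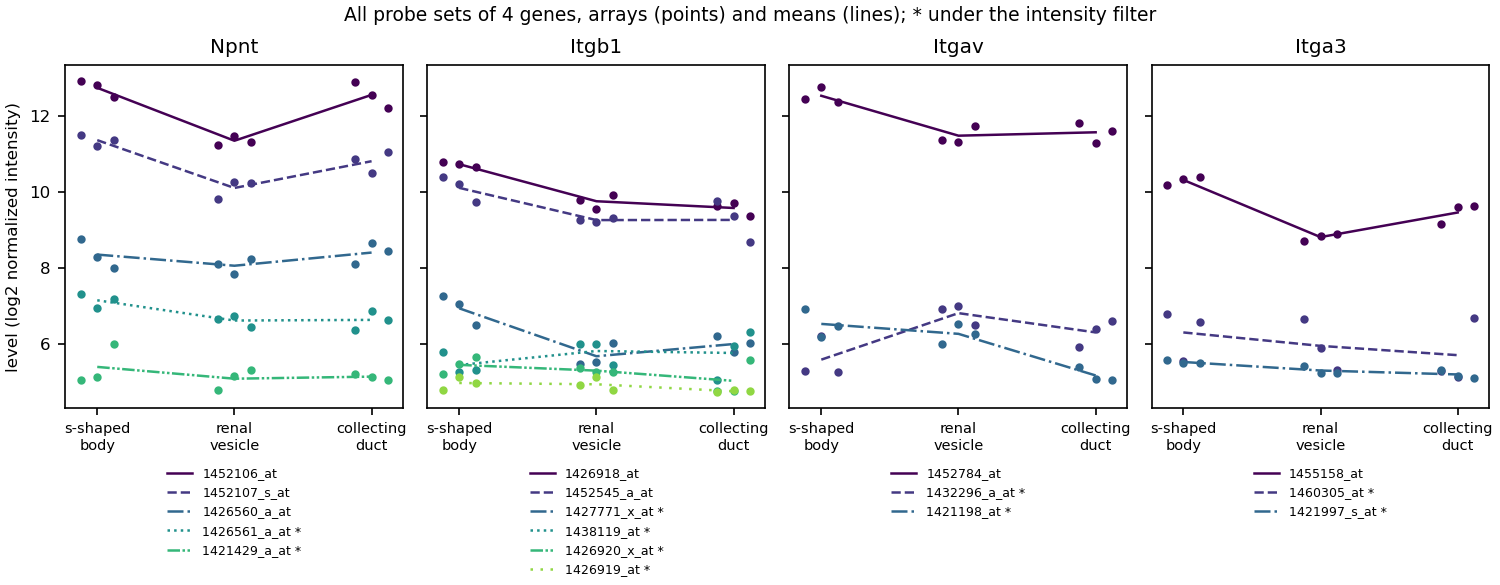
Log2 normalized intensity of every probe set of Npnt, Itgb1, Itga3 and Itgav in s-shaped body, renal vesicle and collecting duct, with 1 point per array and lines through the group means; an asterisk marks probe sets under the intensity filter. Npnt 1452106_at and 1452107_s_at dip in the renal vesicle (means of 11.35 and 10.10), and the dim Itgav probe set 1432296_a_at is highest there (mean of 6.80).

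Counted by probe set, 8 of the 26 passed the filter. Of these, 7 were higher in the s-shaped body than in the renal vesicle, where 16.3% of all 12590 probe sets were higher, 17.3% lower and 33.6% changed either way, and 6 were higher than in the collecting duct, where 14.7% were higher, 13.9% lower and 28.6% changed either way. In the renal vesicle against the collecting duct, 1 was higher and 3 were lower, where 14.8% of all probe sets were higher, 13.5% lower and 28.4% either. Probe sets of 1 gene report on the same RNA and are not independent.

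Because Npnt, Itgb1, Itga3 and Itgav were higher in the s-shaped body than in the renal vesicle, the DNA around their transcription starts is shown, from 250 bases before to 50 bases after the start. The sequences are from RefSeq on build GRCm38.p6, 5′ to 3′ on the strand of the gene, with the start farthest upstream where the table lists 2. They lie at chr3:132950242-132950541 on the minus strand for Npnt, chr8:128685404-128685703 on the plus strand for Itgb1, chr11:95076665-95076964 on the minus strand for Itga3 and chr2:83724147-83724446 on the plus strand for Itgav. Capitals mark matches to the GC box GGGCGG or its reverse complement CCGCCC.
Npnt: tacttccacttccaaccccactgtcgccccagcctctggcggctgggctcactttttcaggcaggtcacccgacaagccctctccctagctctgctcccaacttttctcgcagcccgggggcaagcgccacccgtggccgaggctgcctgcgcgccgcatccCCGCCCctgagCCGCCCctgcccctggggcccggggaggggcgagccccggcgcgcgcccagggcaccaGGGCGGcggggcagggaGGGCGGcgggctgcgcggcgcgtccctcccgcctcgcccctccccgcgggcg
Itgb1: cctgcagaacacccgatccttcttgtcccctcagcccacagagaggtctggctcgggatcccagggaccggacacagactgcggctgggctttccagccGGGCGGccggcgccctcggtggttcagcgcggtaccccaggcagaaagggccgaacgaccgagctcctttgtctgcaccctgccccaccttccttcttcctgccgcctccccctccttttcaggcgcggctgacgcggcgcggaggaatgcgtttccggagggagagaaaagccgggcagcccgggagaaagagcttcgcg
Itga3: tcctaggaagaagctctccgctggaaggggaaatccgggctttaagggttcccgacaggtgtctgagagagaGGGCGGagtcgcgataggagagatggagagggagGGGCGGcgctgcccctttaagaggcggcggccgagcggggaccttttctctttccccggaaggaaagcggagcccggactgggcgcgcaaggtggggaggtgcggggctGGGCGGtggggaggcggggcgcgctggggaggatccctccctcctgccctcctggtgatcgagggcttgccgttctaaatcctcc
Itgav: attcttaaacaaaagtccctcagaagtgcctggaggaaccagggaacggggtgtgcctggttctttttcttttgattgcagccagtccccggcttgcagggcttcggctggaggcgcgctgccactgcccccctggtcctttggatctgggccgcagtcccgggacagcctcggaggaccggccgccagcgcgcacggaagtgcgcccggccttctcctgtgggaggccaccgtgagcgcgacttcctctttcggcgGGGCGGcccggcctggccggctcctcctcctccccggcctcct
The Npnt sequence holds 4 GC boxes, that of Itga3 holds 3, and those of Itgb1 and Itgav hold 1 each. The table held such a promoter for 8 of the 10 members (none for Itga6 and Itgb4), and 6 of these 8 contained a GC box on either strand, compared with 35.7% of all 32851 promoters of this length. The 6 include Itga2 and Itga5, which did not pass the test in the s-shaped body against the renal vesicle, and the Itga8 and Itgb6 promoters had 0 matches. The TATA box TATAAA was found in 0 of 8, compared with 13.6% of all promoters, CCAAT in 0 of 8, compared with 37.4%, and the AP-1 site TGANTCA in 0 of 8, compared with 7.81%, each on both strands. None of the 4 motifs contains another, and a match is a description of the sequence only.

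Itga8, the receptor chain for nephronectin, was dim on this array. Its single probe set, 1427489_at, read 7.82, 6.95 and 6.85 in s-shaped body samples, 5.61, 6.53 and 7.21 in renal vesicle samples and 6.28, 5.59 and 5.04 in collecting duct samples, and exceeded the array median on 1 of 9 arrays. The corresponding deposited intensities were 206.24, 97.43 and 97.04 in s-shaped body samples, 19.23, 61.89 and 114.14 in renal vesicle samples and 49.49, 26.99 and 8.21 in collecting duct samples. The s-shaped body lay above the collecting duct with no overlap, and the renal vesicle overlapped with both. In the fit of all 22626 probe sets, of which 8.8% were higher and 16.6% changed either way, the s-shaped body exceeded the collecting duct by 1.57 (SE 0.45, 95% interval 0.58 to 2.56, limma adjusted p 0.0362). The s-shaped body differed from the renal vesicle, a comparison in which 9.46% of all probe sets were higher and 9.14% lower, by 0.75 (limma adjusted p 0.304), and the renal vesicle from the collecting duct by 0.81 (limma adjusted p 0.28). The call against the collecting duct was lost without any 1 s-shaped body replicate, without collecting duct replicate 2 or 3 and without renal vesicle replicate 2 (limma adjusted p from 0.0543 to 0.129), and the difference ran from 0.93 with a pseudocount of 82 to 2.52 with a pseudocount of 1.

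Itgb4 pairs with Itga6 in hemidesmosomes, the junctions that anchor epithelia to the basement membrane. Probe set 1427387_a_at read 5.29, 5.41 and 4.88 in s-shaped body samples, 5.20, 5.33 and 5.33 in renal vesicle samples and 6.01, 6.61 and 6.41 in collecting duct samples. All collecting duct arrays lay above the other 6, although 0 of the 9 arrays exceeded the array median. Itgb4 fell by 1.15 in the s-shaped body (SE 0.20, limma adjusted p 0.00248) and by 1.06 in the renal vesicle (SE 0.20, limma adjusted p 0.00527), each relative to the collecting duct. In these comparisons 7.81% and 7.5% of all probe sets were lower. The first difference ran from −0.57 with a pseudocount of 82 to −2.43 with a pseudocount of 1. The s-shaped body differed from the renal vesicle by −0.09 (95% interval −0.54 to 0.35, limma adjusted p 0.819).

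Itgb6 pairs with Itgav in epithelia, where the receptor binds and activates latent TGF-beta. Probe set 1432281_a_at read 5.50, 5.83 and 6.15 in s-shaped body samples, 6.52, 6.26 and 5.96 in renal vesicle samples and 6.61, 6.97 and 8.11 in collecting duct samples. The collecting duct arrays were again the highest, with replicate 3 well above the other arrays of its group. Itgb6 fell by 1.40 in the s-shaped body relative to the collecting duct (SE 0.36, limma adjusted p 0.024), a difference that ran from −0.89 to −1.98 with pseudocounts of 82 and 1. The call was lost without s-shaped body replicate 1 (limma adjusted p 0.0901) or 2 (0.0684), without renal vesicle replicate 3 and collecting duct replicate 2 together (0.056), and with only the 2 groups compared in the fit (0.05). The renal vesicle differed from the collecting duct by −0.98 (limma adjusted p 0.104), and the s-shaped body from the renal vesicle by −0.42 (limma adjusted p 0.513). A further probe set, 1422983_at, was dimmer still and did not pass in any comparison. Urothelium markers were high in the same collecting duct samples, and their part in the Itgb4 and Itgb6 values was not tested.

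Itga2, the alpha chain of a collagen and laminin receptor, read 6.42, 6.68 and 7.08 in s-shaped body samples, 5.32, 5.83 and 6.38 in renal vesicle samples and 7.07, 6.80 and 6.40 in collecting duct samples. Its renal vesicle values were the lowest but did not pass the test, with differences of 0.88 for the s-shaped body against the renal vesicle (limma adjusted p 0.0749) and −0.91 for the renal vesicle against the collecting duct (limma adjusted p 0.0764). Both passed without renal vesicle replicate 3 (limma adjusted p 0.0281 and 0.0321), with array weights (0.0137 and 0.00744) and with no further normalization (0.0476 and 0.0396). Itga5, the alpha chain of the classical fibronectin receptor, averaged 6.79 ± 0.09 in s-shaped body samples, 6.73 ± 0.20 in renal vesicle samples and 7.11 ± 0.13 in collecting duct samples (SD, n = 3 each). Its differences lay between −0.38 and 0.06, and neither of its 2 probe sets passed in any comparison.

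**Figure D4:**
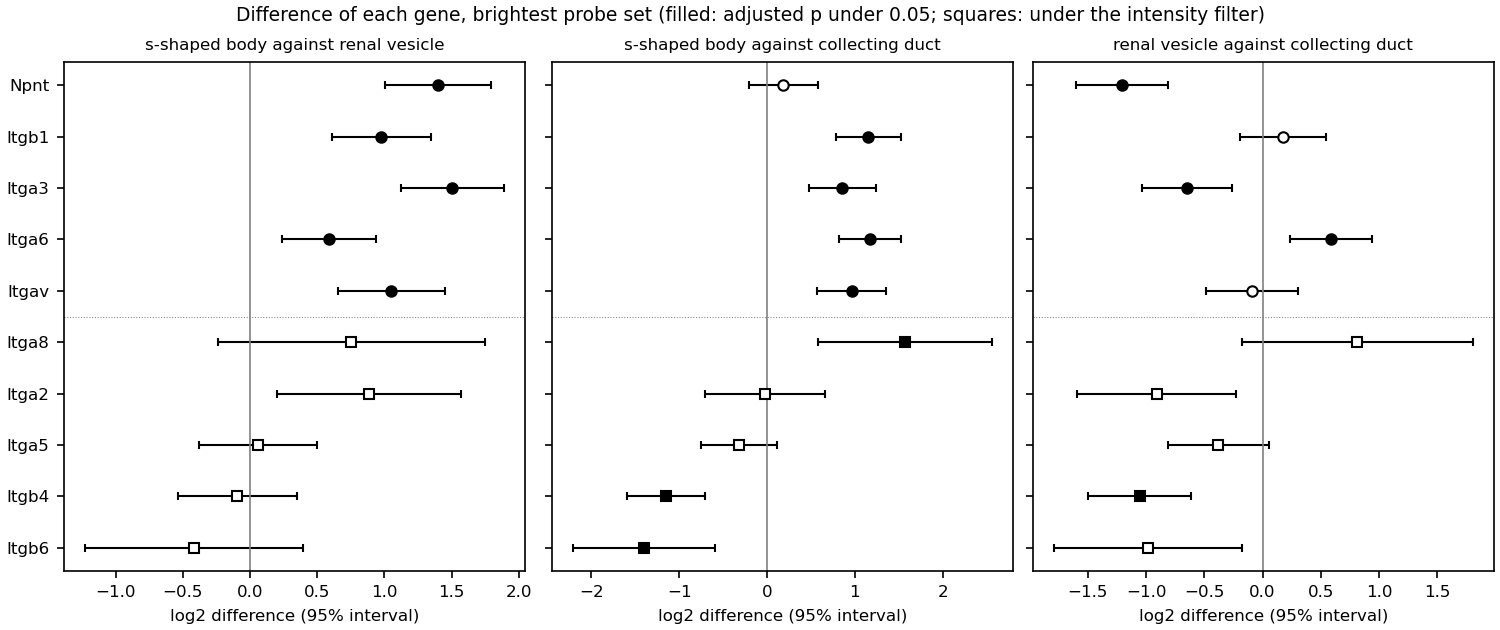
Log2 differences of the brightest probe set of each member in the 3 comparisons (1 panel each) with 95% intervals from the limma fit of every probe set; filled symbols passed the adjusted p threshold, and squares, below the dotted line, mark members under the intensity filter. Npnt, Itgb1, Itga3, Itga6 and Itgav lie right of 0 for the s-shaped body against the renal vesicle (0.59 to 1.51), and Itgb4 and Itgb6 lie left of 0 for the s-shaped body against the collecting duct (−1.15 and −1.40).

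Across the 3 structures, the s-shaped body ranked highest for Itgb1, Itga3, Itga6 and Itgav, and the collecting duct for Itgb4 and Itgb6. Neighbours in the order that did not pass the test, and whose arrays overlapped, were the collecting duct and s-shaped body for Npnt and Itga2, the renal vesicle and the collecting duct for Itgb1, Itgav and Itga8, and the s-shaped body and the renal vesicle for Itga8, Itga5, Itgb4 and Itgb6. For Itgb6, the renal vesicle and collecting duct arrays did not overlap, with a 95% interval of the difference from −1.79 to −0.17, although the adjusted p missed the threshold. For Itga5, the s-shaped body and collecting duct arrays did not overlap either, with a 95% interval from −0.76 to 0.12. For Itga2, the arrays of the s-shaped body did not overlap those of the renal vesicle, with a 95% interval from 0.20 to 1.57, and the adjusted p missed the threshold. The comparisons share arrays, so they are not independent of each other.

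Other integrin subunits were sparse on the arrays above the filter. Of 18 listed, 13 had a probe set and 4 were tested (Itgb5, Itga9, Itga4 and Itga2b). Of these 4, 3 were higher in the s-shaped body than in the renal vesicle and 3 than in the collecting duct, where 18.5% and 16.9% of all genes were. Itgb5, a beta chain that pairs with Itgav, averaged 12.90 ± 0.12 in s-shaped body samples, 9.71 ± 0.69 in renal vesicle samples and 10.74 ± 0.52 in collecting duct samples (SD, n = 3 each). It was 9.10-fold higher in s-shaped body samples than in the renal vesicle (limma adjusted p 1.21e-05) and 4.47-fold higher than in the collecting duct (limma adjusted p 0.000194). Itga9 and Itga4, alpha chains that pair with Itgb1, were higher in the s-shaped body than in the renal vesicle by 1.19 and 1.72 (limma adjusted p 0.00787 and 0.00967). Itga4 entered the test through the 3 s-shaped body arrays, where it was high, and lay under the array median on the other 6. Itga2b, the platelet alpha chain, did not pass in any comparison, with differences from −0.39 to 0.27. With the stricter filter of 6 arrays above the median, 1 subunit was higher in each of the s-shaped body comparisons.

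Among ligands with an RGD motif or like it, 9 of 16 genes on the array were tested, and 6 were higher and 2 lower in s-shaped body samples than in the renal vesicle (median difference 1.06). Of all genes, 18.5% were higher and 17.8% lower. Against the collecting duct, 7 were higher and 2 lower in s-shaped body samples (median 1.69), and the renal vesicle had 3 higher and 4 lower ones (median 0.26). The shares of all genes were 16.9% higher and 15.9% lower for the s-shaped body, and 15.6% and 15.9% for the renal vesicle. Edil3 is counted as higher in both s-shaped body comparisons. It entered the test only through the 3 s-shaped body arrays, with 0 renal vesicle and 0 collecting duct arrays above the median. Fn1, which encodes fibronectin, averaged 11.71 ± 0.06, 10.64 ± 0.11 and 10.03 ± 0.06 in s-shaped body, renal vesicle and collecting duct samples (SD, n = 3 each) and differed in all 3 comparisons, with limma adjusted p between 1.61e-06 and 0.00588. Tgfbi, a matrix protein bound by several integrins, was 12.3-fold higher in s-shaped body samples and 5.93-fold higher in the renal vesicle than in collecting duct samples (limma adjusted p 1.04e-06 and 3.3e-05). Ltbp1, which tethers latent TGF-beta to the matrix, averaged 9.68 ± 0.24 in s-shaped body samples, 9.74 ± 0.03 in renal vesicle samples and 5.08 ± 0.36 in collecting duct samples (SD, n = 3 each), with limma adjusted p of 9.28e-09 and 1.35e-08 against the collecting duct. Ccn1, a secreted matrix-associated protein, went the other way and was 7.67-fold lower in the s-shaped body and 4.41-fold lower in renal vesicle samples than in collecting duct samples (limma adjusted p 3.74e-07 and 8.65e-06).

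Of 19 tested genes for laminins and other basement membrane ligands, 10 were higher and 4 lower in s-shaped body samples than in the renal vesicle (median 0.81). Of all genes, 18.5% were higher and 17.8% lower. For the s-shaped body against the collecting duct 8 were higher and 2 lower (median 0.47), and in the renal vesicle against the collecting duct 8 were higher and 6 lower (median 0.29). The shares of all genes were 16.9% and 15.9%, and 15.6% and 15.9%. Lama1 is among the 4 lower than in the renal vesicle and the 8 higher in it than in the collecting duct. It entered the test only through the 3 renal vesicle arrays. Lamb3, counted as lower in both comparisons with the collecting duct, entered only through the 3 collecting duct arrays. The 4 lower than in the renal vesicle became 2 without renal vesicle replicate 2, renal vesicle replicate 3, s-shaped body replicate 2 or s-shaped body replicate 3. The nidogen genes Nid1 and Nid2, whose products link laminin to collagen networks, were higher in the s-shaped body than in the collecting duct by 5.39 and 4.10 (limma adjusted p 3.38e-09 and 4.28e-09). Lama4, a laminin alpha chain, averaged 10.04 ± 0.26 in s-shaped body samples, 10.85 ± 0.08 in renal vesicle samples and 5.27 ± 0.16 in collecting duct samples (SD, n = 3 each) and was lower in the s-shaped body than in the renal vesicle by 1.75-fold (limma adjusted p 0.00359). Col4a2, a basement membrane collagen chain, was 14.7-fold higher in s-shaped body samples and 4.40-fold higher in the renal vesicle than in collecting duct samples (limma adjusted p 5.72e-09 and 1.23e-06).

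Of 8 tested collagens that integrins bind, 6 were higher in the s-shaped body than in the renal vesicle (median 1.46) and 6 than in the collecting duct (median 1.46). Of all genes, 18.5% and 16.9% were higher in these comparisons, and 17.8% and 15.9% lower. By limma, 0 of the 8 were lower in either comparison, also at an unadjusted p under 0.05. Col1a2, a fibrillar collagen chain, was 24.7-fold higher in s-shaped body samples than in the renal vesicle and 72.0-fold higher than in the collecting duct (limma adjusted p 1.19e-06 and 4.85e-08). Col5a2, Col3a1 and Col5a1 were also higher in the s-shaped body than in the renal vesicle, by 4.48, 1.99 and 1.90 (limma adjusted p 5.92e-07, 0.00318 and 0.000263). Col1a2, Col3a1 and Col1a1, all among the 6 higher in each comparison, are themselves stroma markers. The stroma markers as a group rose in the same samples, 8 of 9 tested being higher in the s-shaped body than in the renal vesicle.

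Adaptors and kinases connect integrins to actin and pass on the signal of adhesion. Of 30 tested, 21 were higher in the s-shaped body than in the renal vesicle and 0 lower (median 0.88), where 18.5% and 17.8% of all genes were. By limma, 0 were lower at an unadjusted p under 0.05. Against the collecting duct, 15 were higher in the s-shaped body and 0 lower (median 0.52), where 16.9% and 15.9% of all genes were. By limma, 1 was lower at an unadjusted p under 0.05. Lims2 is counted as higher in both of these comparisons. It entered the test only through the 3 s-shaped body arrays, with 0 renal vesicle and 0 collecting duct arrays above the median. In the renal vesicle against the collecting duct, 3 were higher and 9 lower (median −0.33), where 15.6% and 15.9% of all genes were. The 9 became 5 without collecting duct replicate 2 and 14 with array weights. Fermt2, which encodes the integrin activator kindlin-2, averaged 12.82 ± 0.06 in s-shaped body samples, 11.39 ± 0.36 in renal vesicle samples and 9.91 ± 0.21 in collecting duct samples (SD, n = 3 each) and differed in all 3 comparisons. Parva, a partner of integrin-linked kinase, was 5.72-fold higher in s-shaped body samples than in the renal vesicle (limma adjusted p 1.15e-05). Actn4 and Pxn, which encode an actin crosslinker and the scaffold paxillin, were 2.69-fold and 3.40-fold higher in s-shaped body samples than in the renal vesicle (limma adjusted p 9.28e-06 and 1.31e-05). In the renal vesicle both were lower than in the collecting duct, by 1.51-fold and 2.71-fold (limma adjusted p 0.00596 and 6.98e-05).

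Tetraspanins and other membrane partners sit beside integrins in the cell membrane. Of 11 tested, 7 were higher and 2 lower in s-shaped body samples than in the renal vesicle (median 0.82), where 18.5% and 17.8% of all genes were. In the renal vesicle against the collecting duct, 6 were lower and 0 higher (median −0.77), with 0 higher at an unadjusted p under 0.05 by limma. Of all genes, 15.9% were lower and 15.6% higher. In the s-shaped body against the collecting duct 4 were higher and 3 lower (median −0.25), where 16.9% and 15.9% of all genes were. The 4 became 2 without s-shaped body replicate 1, s-shaped body replicate 2 or collecting duct replicate 2. Tspan8, a tetraspanin of epithelia, averaged 10.03 ± 0.23 in s-shaped body samples, 6.51 ± 1.01 in renal vesicle samples and 12.37 ± 0.10 in collecting duct samples (SD, n = 3 each). It was higher by 3.52 in s-shaped body samples than in renal vesicle samples (limma adjusted p 2.01e-05) and differed by −5.86 between renal vesicle and collecting duct samples (limma adjusted p 3.26e-07), with 1 of 3 renal vesicle arrays above the median. Cd9, a further tetraspanin, differed from the collecting duct by −2.80 in the s-shaped body and by −1.55 in the renal vesicle (limma adjusted p 1.82e-06 and 0.000367). Cd9 entered the test only through the 3 collecting duct arrays, where it was high, with 0 s-shaped body and 0 renal vesicle arrays above the median. It is among the genes counted as lower in both comparisons with the collecting duct. Sdc4, a heparan sulfate proteoglycan of focal adhesions, and Cd81, a tetraspanin, were 3.70-fold and 2.93-fold higher in s-shaped body samples than in the renal vesicle (limma adjusted p 9.06e-06 and 3.23e-05).

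In the hemidesmosome Itga6 and Itgb4 meet laminin. Of 5 tested genes of this junction, 4 were higher in the s-shaped body than in the renal vesicle (median 0.99), where 18.5% of all genes were higher. Against the collecting duct, 1 was higher and 2 were lower in s-shaped body samples (median −0.27), and 4 were lower in renal vesicle samples (median −1.09). Of all genes, 15.9% were lower in each of these comparisons, and 16.9% were higher in the first. Lama3, Lamb3 and Cd151 were also counted among the laminins or the tetraspanins above, so the lists are not independent. Lamb3, a chain of the laminin that hemidesmosomes bind, averaged 5.87 ± 0.15, 5.50 ± 0.48 and 8.87 ± 0.44 in s-shaped body, renal vesicle and collecting duct samples (SD, n = 3 each). It entered the test through the 3 collecting duct arrays, where it was high, and lay under the array median on the other 6. Its level differed from that of collecting duct samples by −3.0 in s-shaped body samples and by −3.38 in renal vesicle samples (limma adjusted p 6.75e-06 and 4.29e-06). Lama3, from the same laminin, differed by −2.25 between renal vesicle and collecting duct samples (limma adjusted p 3.34e-06). Cd151, the tetraspanin that binds laminin-receptor integrins, was 2.13-fold lower in renal vesicle samples than in collecting duct samples (limma adjusted p 6.46e-05). Dst, which encodes a plakin that links hemidesmosomes to filaments, did not pass in that comparison (0.47, limma adjusted p 0.191) and was 1.99-fold higher in s-shaped body samples than in the renal vesicle (limma adjusted p 0.0095).

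Genes of the pathway by which Itga8 and Npnt act on bud outgrowth were mostly dim, and 4 of the 11 on the array were tested. In the s-shaped body against the renal vesicle 2 were higher and 1 lower (median 0.03), in the s-shaped body against the collecting duct 1 was higher and 1 lower (median −0.43), and in the renal vesicle against the collecting duct 1 was higher and 2 lower (median −0.32). The shares of all genes higher and lower were 18.5% and 17.8%, 16.9% and 15.9%, and 15.6% and 15.9% in the same order. In the renal vesicle against the collecting duct, the 2 lower became 1 without renal vesicle replicate 1, renal vesicle replicate 2 or collecting duct replicate 2. Across all alternatives, the number lower in that comparison lay between 0 and 3 and the number higher between 0 and 4. Wnt11, a signal of the bud tip, averaged 7.08 ± 0.33 in s-shaped body samples, 8.53 ± 0.67 in renal vesicle samples and 6.98 ± 0.16 in collecting duct samples (SD, n = 3 each), and the renal vesicle differed from the collecting duct by 1.55 (limma adjusted p 0.002). Wnt11 entered the test mainly through the 3 renal vesicle arrays, with 1 s-shaped body array and 0 collecting duct arrays above the median. Gata3, a transcription factor of the ureteric bud, differed by −2.84 between renal vesicle and collecting duct samples (limma adjusted p 0.000469), with 0 of 3 renal vesicle arrays above the median. Grip1, an adaptor of the Fras1 matrix complex, was lower in the s-shaped body than in the collecting duct, with a difference of −1.30 (limma adjusted p 0.000355). Hs2st1, a heparan sulfate modifying enzyme, was 1.65-fold higher in s-shaped body samples than in the collecting duct (limma adjusted p 0.00296).

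**Figure D5:**
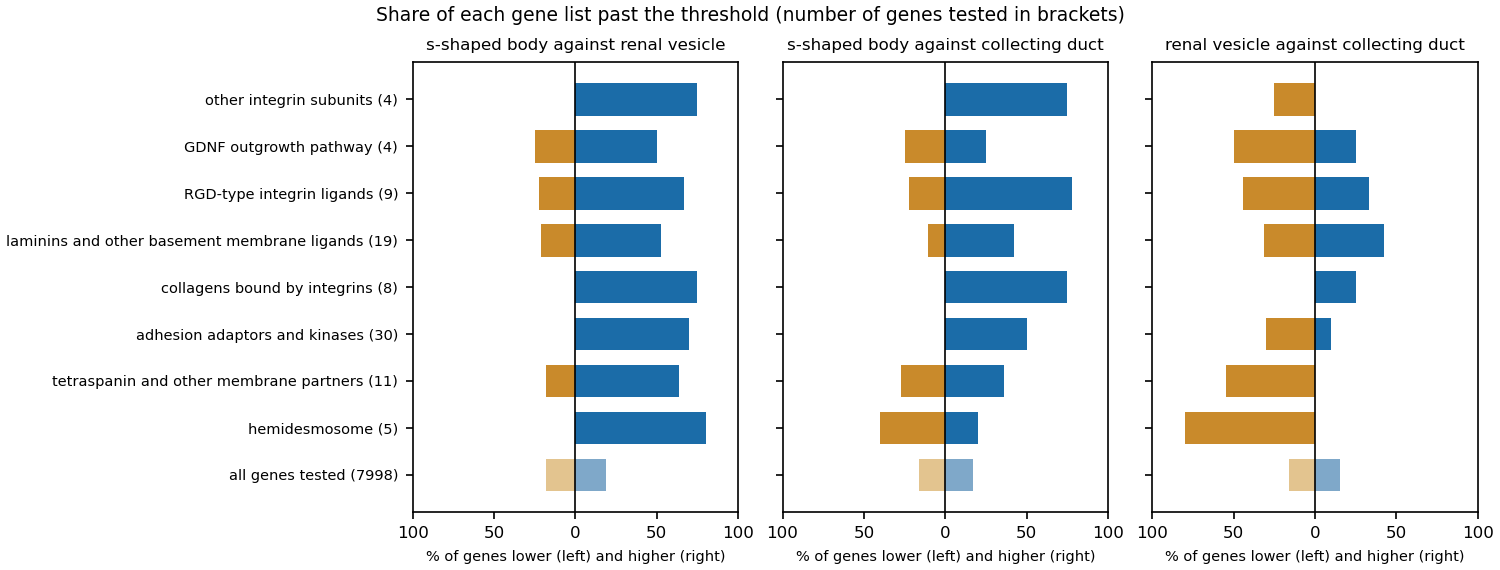
Percent of the tested genes of each list that were lower (left of 0) and higher (right of 0), 1 panel per comparison, beside the same for all 7998 genes tested. For the adhesion adaptors and kinases in the s-shaped body against the renal vesicle, 21 of 30 were higher and 0 lower, where 18.5% of all genes were higher.

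The tested genes whose log2 levels followed a member most closely were ranked by Pearson correlation over the 9 arrays. The arrays fall into 3 structures, so that every gene which differs between structures in the same way correlates, and no p is given. For Npnt the closest were Kctd10 and Irs1 (r of 0.98 each), 1600012H06Rik, Stx4a and Abca1 (r of 0.97 each). For Itgb4 they were Mllt3, Ankhd1 and Cyp4v3 (r of 0.97 each), Sphk1 and Plekhb2 (r of 0.96 each). For Itgb6 they were Cdc42ep4 (r of 0.99), Gtf3c5 (0.98), Camkk2 (0.97), Jrk and Fcho1 (0.96 each). For Itga8 they were Capn2, Serinc1, Sec24d, Dpp8 and Dach1, with r between 0.93 and 0.94. The last 3 members were under the filter themselves.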

How the data were processed

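Each array's deposited values were linear intensity, 1 per probe set, which the authors made with GCOS, the Affymetrix array software, per the submitters' processing notes, which give no version; the algorithm is not given in the sources used here. Array medians lay between 112.2 and 144.8. With no counts behind the values, precision depends on the number of arrays.

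Values were raised by 26, the pseudocount set at their 20th percentile, and log2-transformed. The largest gap between array medians was 0.305, over the limit of 0.25, so quantile normalization followed. Of 22690 probe sets, 64 controls were left out. The platform annotation of 2016 gives 1 symbol for 20380 probe sets, several for 691 and none for 1555. Probe sets above the median of their array on at least 3 arrays were kept, and the brightest stood for its gene.

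All 9 arrays entered 1 linear model in limma 3.58.1 under R 4.3.3 (lmFit, then eBayes with a trend on intensity, two-sided, Benjamini-Hochberg), leaving 6 residual degrees of freedom. The probe sets of the members were also fitted one by one, with and without the filter. The fits were tested on simulated data. The labels call each sample a biological replicate but name no litter or animal, so p-values measure the spread between these samples.

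Named were all members, the 4 best genes per list by adjusted p, and the 5 genes most correlated with each of Itga8, Npnt, Itgb4 and Itgb6. The members, lists and markers were chosen with earlier results of these data known. Alternatives changed the pseudocount, scaling, filter, probe set rule, variance model, groups in the fit and the arrays.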

Additional observations from a re-analysis of the deposited data

How the results depend on the processing

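Across the alternatives, 567 of the values kept their direction and their side of the threshold, 17 kept the direction and no longer passed, 8 kept the direction and newly passed, and 8 changed sign. The calls of Npnt, Itgb1, Itga3 and Itgav in the s-shaped body against the renal vesicle held in 22 of 22 settings, and those of Itgb4 against the collecting duct in 18 of 18. Without the intensity filter, 7 of 10 members changed in the s-shaped body against the collecting duct (5 higher, 2 lower), where 4 of 5 did with it; 22.4% of all 12393 genes changed in that unfiltered fit. Of the 8 probe sets tested in the renal vesicle against the collecting duct, 4 changed, but 2 did without renal vesicle replicate 1, and 2 without renal vesicle replicate 3 and collecting duct replicate 2 together. When 1 array was left out at a time, probe sets called lay between 5 and 7 for the s-shaped body against the renal vesicle, between 4 and 6 for the s-shaped body against the collecting duct and between 2 and 4 for the renal vesicle against the collecting duct. Members called stayed at 5, stayed at 4 and lay between 2 and 3 in the same order, and genes called between 2218 and 3400, between 2105 and 2798 and between 1964 and 2605. The sign changes were all in differences that did not pass: Itgav in the renal vesicle against the collecting duct (0.1105 with median centring, 0.0098 with array weights, and from −0.3595 to 0.0311 with arrays left out, above 0 without collecting duct replicate 1), Itgb1 in that comparison (−0.0035 with array weights), Itga5 in the s-shaped body against the renal vesicle (from −0.0437 to 0.1545, below 0 without renal vesicle replicate 1), Itga2 in the s-shaped body against the collecting duct (from −0.2032 to 0.1312, above 0 without s-shaped body replicate 1 or collecting duct replicate 1) and Itgb4 in the s-shaped body against the renal vesicle (from −0.1996 to 0.0615, above 0 without s-shaped body replicate 3). The cause was not tested.

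The share of calls that were higher was 49.6% in the renal vesicle against the collecting duct and 51% in the s-shaped body against the renal vesicle, but 59.9% and 43.6% with median centring, and 44% and 56% with no further normalization. Median centring shifted the median of all genes by 0.10 and −0.08 in these comparisons. No block was used, because the labels tie no replicate number to a shared litter or day. Deviations of arrays with the same number correlated between −0.034 and 0.161, over 0.1 in 5 of 9 pairs. Those of arrays with different numbers correlated between −0.155 and 0.149, over 0.1 in 1 of 18. Whether same-numbered arrays shared a source was not tested. With a replicate block, 5, 4 and 3 members changed in the s-shaped body against the renal vesicle, the s-shaped body against the collecting duct and the renal vesicle against the collecting duct, as without it, and Itga8 did not pass against the collecting duct (limma adjusted p 0.0659). Dim probe sets lie close to the pseudocount, which limits what can be said of Itga8, Itga2, Itga5, Itgb4 and Itgb6.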
